A study of Homo sapiens with 8 samples.

Results

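The IGF2 mRNA-binding proteins IGF2BP1, IGF2BP2 and IGF2BP3, the let-7 antagonist LIN28B, the chromatin proteins HMGA1 and HMGA2, and the linked H19 and IGF2 genes were examined in pancreatic cancer cell lines given HOXB7 siRNA. The members were the non-control probes whose gene name in the scanner files was 1 of these 8 symbols. All 8 genes were found, among 27274 genes named on the array, and they were measured by 12 of the 34127 different gene probes. Both are established human lines. MIA PaCa-2 derives from a primary tumor of the pancreas and was kept in RPMI medium, and Capan-1 derives from a hepatic metastasis and was kept in IMDM medium. For each line there were 2 one-color Agilent arrays of parental cells and 2 of cells that had received 10 nM HOXB7 siRNA for 48 hours. The parental cells had not been transfected, none of the 8 arrays was of cells given scrambled siRNA, and the duplex is not named in the labels, so HOXB7 loss and transfection cannot be told apart. The labels do not say whether the 2 arrays of a group came from separate cultures, so the p-values measure only the spread between these arrays.

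These genes are expressed in the embryo and fetus, and most of them are low in adult tissues and are often switched on again in carcinomas, hence the term oncofetal. LIN28B binds the precursors of the let-7 microRNAs and blocks their maturation. Mature let-7 represses HMGA2, HMGA1, IGF2BP1, IGF2BP3 and LIN28B itself, while HMGA2 promotes IGF2BP2 transcription and the IGF2BP proteins bind IGF2, H19 and many other transcripts. H19 is a long non-coding RNA that hosts miR-675, and it lies next to IGF2, a fetal growth factor gene, with which it shares enhancers and a reciprocal parental imprint.

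The let-7 microRNAs are shown because they join LIN28B to the HMGA and IGF2BP genes. The mature sequences were taken from RefSeq (GRCh38.p14), with the seed, bases 2 to 8, in capitals. The same seed was carried by 11 mature microRNA names from 14 genes in that table, of which 5 names are printed because they differ from each other outside it. MicroRNA levels were not analysed here.
let-7a-5p: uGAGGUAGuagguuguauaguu
let-7d-5p: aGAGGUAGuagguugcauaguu
let-7e-5p: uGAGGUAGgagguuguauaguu
let-7g-5p: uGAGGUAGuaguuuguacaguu
miR-98-5p: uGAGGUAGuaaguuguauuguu

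The let-7g precursor shows the motif GGAG, which LIN28 proteins recognize, in capitals between its mature arms (chr3:52268278-52268361, GRCh38.p14, minus strand). On the strand of the precursor, GGAG lay between the arms in 8 of 11 hairpins of the let-7 seed family and in 60 of all 739 hairpins that had both arms in the table (8.12%). The MIRLET7A3, MIRLET7B and MIR98 hairpins had none there.
let-7g hairpin: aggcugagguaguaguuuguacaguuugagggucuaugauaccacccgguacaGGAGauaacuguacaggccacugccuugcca

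The letters CTACCTC, which pair with the let-7 seed, were searched on the transcript strand of the array probes. They occurred in 1 of the 12 member probes, that of HMGA1, and in 116 of all 34127 gene probes (0.34%). The 29 bases around it (chr6:34321588-34321616, hg18, plus strand) are printed with the match in capitals. A match of letters is a description of the probe and not evidence of a site in use.
HMGA1 site: ctgttcacaaaCTACCTCtggacagttgt

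Probes for HMGA2 and H19 are shown because the comparison of the parental lines rests on them. The first HMGA2 probe (chr12:64505368-64505427, hg18, plus strand) lies in coding sequence, and its capitals mark the codons for the arginine, glycine, arginine and proline at the core of an AT-hook, the part of the protein that binds DNA. Such codons in a frame without a stop were found in 20 of all 34127 gene probes (0.0586%). The H19 probe (chr11:1973250-1973309, hg18, minus strand) lies in a non-coding transcript. The sequences of miR-675, excised from H19, have their seeds in capitals; the 5p seed was shared with 1 other name in the table (2 in all) and the 3p seed with none.
HMGA2 first: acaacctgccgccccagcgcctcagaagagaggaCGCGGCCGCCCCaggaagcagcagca
H19: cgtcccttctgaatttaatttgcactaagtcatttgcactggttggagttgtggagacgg
miR-675-5p: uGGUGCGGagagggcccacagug
miR-675-3p: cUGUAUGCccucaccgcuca

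Between 69.2% and 74.3% of the gene spots of an array were well above background by the scanner software's own call. Intensities are given here as deposited, background-subtracted and not scaled between arrays. Differences are between group means of log2 intensity after the array's 75th percentile, 7.95 to 8.36 on the log2 scale, was subtracted. They were tested with limma at a Benjamini-Hochberg adjusted p under 0.05 over all tested probes. The targeted gene had lower values on the siRNA arrays of both lines. The HOXB7 intensity was 11.6 and 15.4 in parental MIA PaCa-2 and 1.14 and 1.17 after siRNA, where it was not well above background, at least 2.81-fold lower. The limma adjusted p = 0.0173 belongs to the fitted difference and not to this bound. In Capan-1 it was 47.4 and 61.5 in parental cells and 6.56 and 9.5 after siRNA, a log2 difference of -2.62 that did not pass the threshold (adjusted p = 0.121). The lines were hybridized on separate slides, on each of which siRNA samples took positions 1 and 2 and parental samples 3 and 4, so neither slide and line nor position and treatment can be told apart.

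The lines differed in their epithelial markers. In MIA PaCa-2, EPCAM and CDH1 were well above background on 0 of 4 arrays, and 5 of 7 ductal epithelial markers were detected, whereas Capan-1 had all 7 on both arrays of each group. VIM, a mesenchymal intermediate filament gene, ranged from 67835 to 78483 in MIA PaCa-2 and from 114 to 145 in Capan-1. ZEB1, another mesenchymal gene, went the same way, at 553 to 790 against 18.7 to 23.0, and CDH2, the third of that list, went the other way, at 14.9 to 31.5 against 378 to 476. Of the markers of other cells, all 4 leukocyte genes were detected in every group, with a summed intensity of 812 to 1342 in MIA PaCa-2 and 190.0 to 209.8 in Capan-1, most of it CD14 in MIA PaCa-2 (683 to 1201). Of the 4 fibroblast genes, LUM was not well above background on any array, and the sum was 3850.2 to 4576 in MIA PaCa-2, nearly all COL1A2, and 30.6 to 36.6 in Capan-1. Of the 3 endothelial genes 2 were detected in every group, with sums of 99.0 to 133 and 73.6 to 96.2. Their part in the results was not tested.

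**Figure D1:**
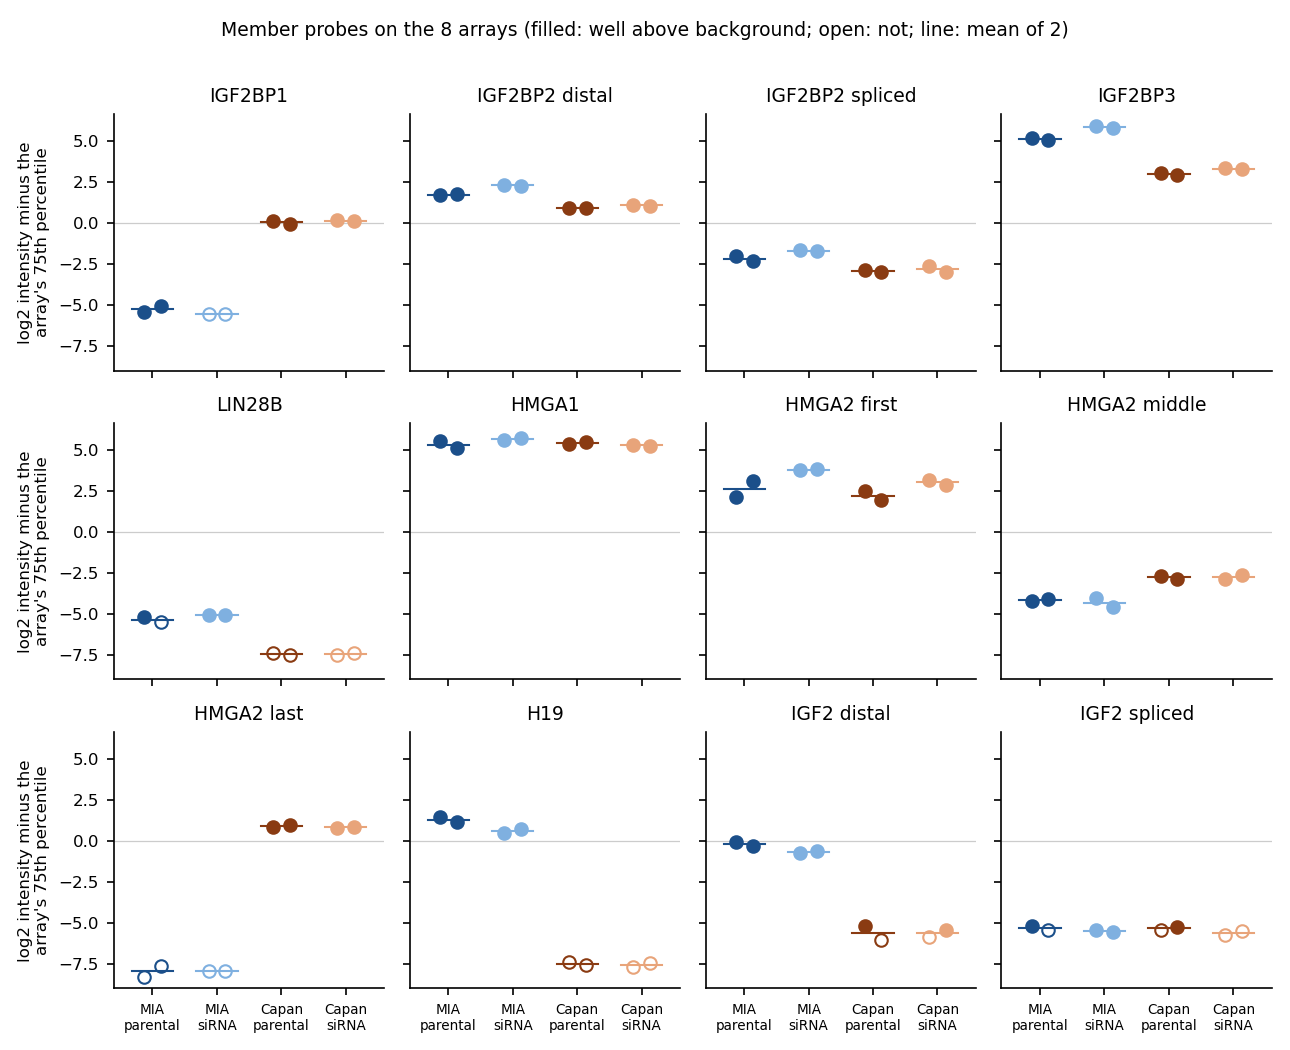
Log2 intensity minus the 75th percentile of the array (vertical axis) for the 12 member probes in the 4 groups (horizontal axis), 1 point per array with the mean of 2 as a line. Filled points were well above background and open points were not. H19 and IGF2 distal are high in MIA PaCa-2, IGF2BP1 and HMGA2 last in Capan-1, and the HMGA1 points of the parental lines overlap.

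The first question was how the oncofetal genes differed between the parental lines before any treatment. H19 and the distal IGF2 probe were far higher in MIA PaCa-2, and the other IGF2 probe was near background and not tested. IGF2BP3 was 4.31-fold higher in MIA PaCa-2, IGF2BP1 was higher in Capan-1, and the HMGA2 probes disagreed with each other. Of 10 tested member probes, 5 were higher and 3 were lower in MIA PaCa-2 (limma). Among all 24964 tested probes, 39.2% were higher and 31% were lower, so the counts of the members lie near the background and are not a result about them. Detection on both arrays of 1 line was enough for a probe to be tested, and H19, IGF2 distal and HMGA2 last passed only through the line where they were high. The log2 median of the member differences was 0.56, beside 0.11 over all tested probes.

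H19 had an intensity of 878 and 578 on the parental MIA PaCa-2 arrays and of 1.58 and 1.68 on the parental Capan-1 arrays. The groups did not overlap, and the RNA was not well above background on any of the 4 Capan-1 arrays. The level in MIA PaCa-2 was at least 145.9-fold higher. The limma adjusted p = 3.52e-07 belongs to the fitted difference against background signals and not to this bound. The bound sets the mean of the bright group against the lowest signal that was called well above background on each array of the dim group.

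IGF2 was measured by a pair of probes, of which the one called IGF2 distal here lies at chr11:2106970-2107029 (hg18, minus strand), 133720 bases from the H19 probe. Its intensity was 307 and 215 in parental MIA PaCa-2 and 7.36 and 4.83 in parental Capan-1, where 1 of 2 arrays was well above background. The log2 difference was 5.40 ± 0.29 (SE, n = 2 against 2; limma adjusted p = 1.54e-05), with no overlap. Its size rests on signals near background in Capan-1 and was 2.40 with another background correction, normexp. The other probe, IGF2 spliced, aligns across a splice junction over 353 bases upstream (chr11:2110978-2111330, hg18) and was near background everywhere. It measured 9.10 and 6.03 in parental MIA PaCa-2 and 6.21 and 8.36 in parental Capan-1, and it was not tested between them. The difference in IGF2 therefore rests on the distal probe alone, and why the spliced probe did not show it was not tested.

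The neighbors of IGF2, looked up after the values of IGF2 had been seen, showed no gap of that size between the lines. IGF2-AS, the antisense transcript, had a probe that ranged from 102 to 123 in parental MIA PaCa-2 and from 114 to 126 in parental Capan-1. Its other probe ranged from 125 to 148 and from 67.4 to 76.9. The read-through transcript INS-IGF2 was not well above background on any array.

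The IGF2BP family split between the lines. IGF2BP1 (chr17:44487378-44487437, hg18, plus strand), which stabilizes MYC and other messages, was carried on 10 spots of each array. Its intensity was 7.81 and 8.04 in parental MIA PaCa-2 and 292 and 305 in parental Capan-1, with no overlap. The log2 difference was -5.27 ± 0.14 (SE, n = 2 against 2; limma adjusted p = 1.11e-06), or 38.5-fold. It rests on dim signals in MIA PaCa-2, and with normexp it was -2.43. Of 20826 probes well above background on all 4 parental arrays, 0.903% had a larger absolute difference.

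IGF2BP3 (chr7:23317294-23317353, hg18, minus strand), the paralog best known as a carcinoma marker, went the other way. Its intensity was 11857 and 8611 in parental MIA PaCa-2 and 2186 and 2410 in parental Capan-1. All 4 arrays detected it, the groups did not overlap, and the log2 difference was 2.11 ± 0.10 (SE, n = 2 against 2; limma adjusted p = 8.00e-06). A larger absolute difference was found in 8.76% of the probes detected on all 4 parental arrays.

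IGF2BP2, the paralog that stays on in adult tissue, differed less. Its distal probe (chr3:186844741-186844800, hg18, minus strand) measured 1067 and 892 in parental MIA PaCa-2 and 497 and 576 in parental Capan-1, a log2 difference of 0.84 ± 0.081 (SE, n = 2 against 2; limma adjusted p = 1.96e-04). The probe across a splice junction, over 1461 bases from chr3:186846097-186847557, gave 0.74 ± 0.15 (adjusted p = 0.0056), in the same direction. Differences of at least this size were common, since 39.4% and 44.5% of the detected probes had a larger one.

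LIN28B (chr6:105637764-105637823, hg18, plus strand) was at the limit of detection. In parental MIA PaCa-2 it measured 9.04 and 5.78, with 1 of 2 arrays well above background, and in parental Capan-1 it measured 1.64 and 1.73, with none. It was not tested between the parental lines, since neither had it detected on both arrays.

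HMGA1 (chr6:34321573-34321632, hg18, plus strand), an AT-hook chromatin protein of proliferating cells, was detected on every array. Its intensity was 14990 and 9098 in parental MIA PaCa-2 and 10784 and 13964 in parental Capan-1, and the groups overlapped. The log2 difference was -0.10, with a 95% interval from -0.47 to 0.26 (limma adjusted p = 0.563). Of the detected probes, 90.7% had a larger absolute difference.

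HMGA2, which bends DNA at enhancers in fetal cells, was measured by 3 probes along 140688 bases, and the comparison of the lines depended on the probe. The first probe, shown above, measured 1402 and 2250 in parental MIA PaCa-2 and 1472 and 1197 in parental Capan-1. These groups overlapped after scaling (log2 difference 0.39, 95% interval from -0.47 to 1.24, adjusted p = 0.354). HMGA2 middle, 90139 bases downstream (chr12:64595507-64595566, hg18), was dim in both, at 17.7 and 15.4 against 42.2 and 43.8, and was lower in MIA PaCa-2 (-1.41 ± 0.20 SE, n = 2 against 2; limma adjusted p = 0.0010). HMGA2 last, 140688 bases downstream of the first (chr12:64646056-64646115, hg18), measured 480 and 612 in parental Capan-1 and 1.07 and 1.33 in parental MIA PaCa-2. It was not well above background on any of the 4 MIA PaCa-2 arrays and was at least 120.7-fold lower there. The limma adjusted p = 6.78e-07 belongs to the fitted difference against background signals and not to this bound. The scanner files assign the first and middle probes to one RefSeq transcript and the last to another, and whether they read the same isoforms was not tested. Without replicate 1 of parental MIA PaCa-2 the first probe passed the threshold (0.89, adjusted p = 0.0325), and without replicate 2 its direction turned (-0.11).

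**Figure D2:**
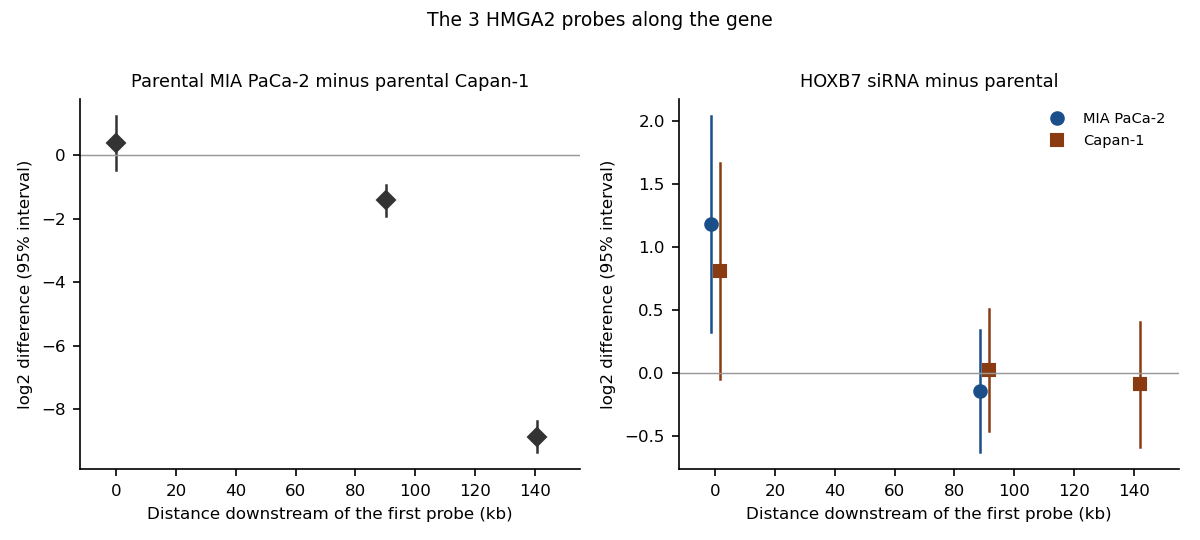
Log2 difference with its 95% interval (vertical axes) of the 3 HMGA2 probes against their distance in kb downstream of the first (horizontal axes), between the parental lines on the left and for siRNA against parental cells in each line on the right. On the left the values go from 0.39 at the first probe to -8.86 at the last, a fitted value against background signals in MIA PaCa-2 and not a bound; on the right the last probe is missing in MIA PaCa-2, where it was not tested.

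The order of the tested members by log2 difference, from higher in MIA PaCa-2 to higher in Capan-1, was H19, IGF2 distal, IGF2BP3, both IGF2BP2 probes, HMGA2 first, HMGA1, HMGA2 middle, IGF2BP1 and HMGA2 last. In that order the 95% intervals of both IGF2BP2 probes overlapped each other and that of HMGA2 first, and that of HMGA2 first overlapped that of HMGA1. The genes whose 8 values were closest to those of H19, by Euclidean distance after centering over 25446 probes, were PNMA8A (0.46), CUBN (0.63) and PALM (0.76). For IGF2 distal they were S100A1 (0.52), PPP1R14A (0.54) and OLIG1 (0.64). All 6 were detected on every MIA PaCa-2 array, and of them PALM alone was detected in Capan-1, the others being well above background on 0 of 4 arrays there. The distances of those 5, like that of H19, therefore include background signals and are a description only.

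**Figure D3:**
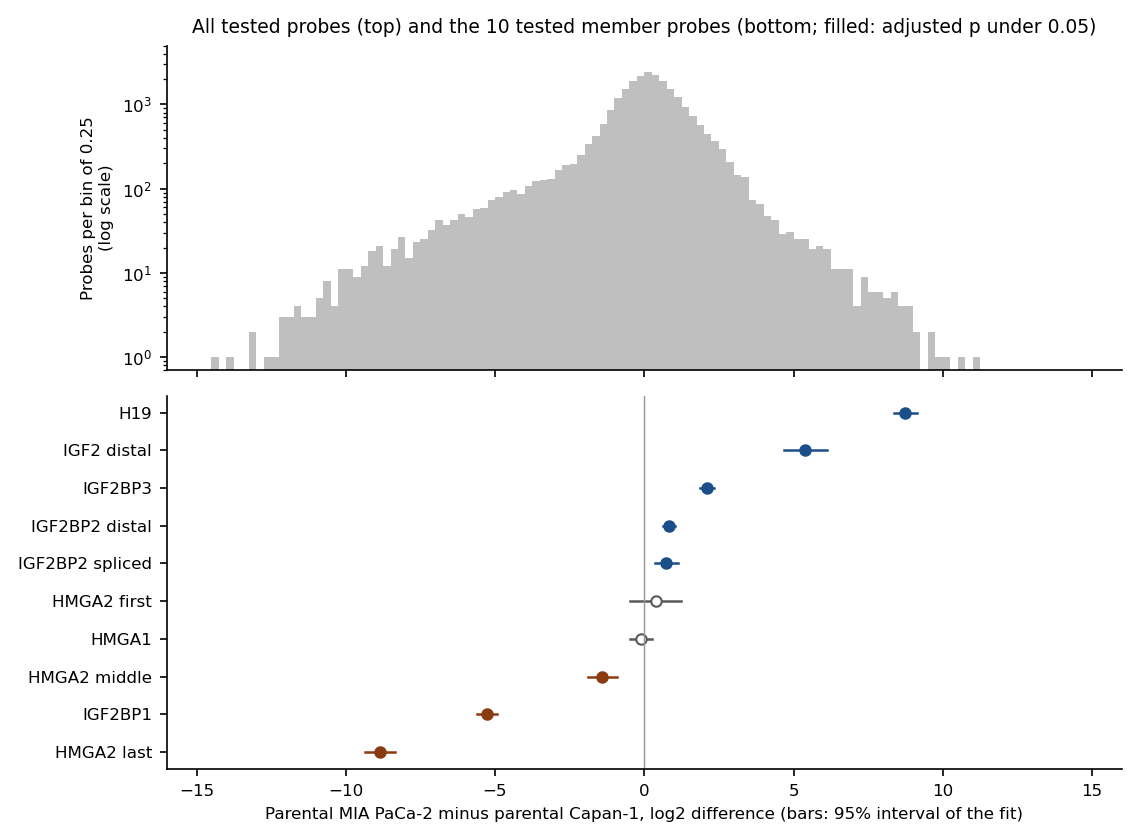
Distribution of the log2 difference between the parental lines over 24964 tested probes (top, bins of 0.25, logarithmic vertical axis) above the values of the 10 tested member probes with their 95% intervals (bottom). The members reach from -8.86 for HMGA2 last to 8.74 for H19, both fitted values against background signals and not bounds.

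The choice of background correction set the size of the differences that rest on dim signal. With normexp in place of the software's subtraction the log2 differences also shrank to 3.63 for H19, -3.39 for HMGA2 last, -0.37 for HMGA2 middle and 0.35 for IGF2BP2 spliced, each with the same call. With spike-in scaling the median of all tested probes moved to -0.14, the share of calls that were higher in MIA PaCa-2 moved from 55.8% to 43.3%, and IGF2BP2 spliced lost its call (0.49, adjusted p = 0.0889).

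The next question was whether the members changed after HOXB7 siRNA within a line. In MIA PaCa-2, IGF2BP3 and the distal IGF2BP2 probe were higher after siRNA, both close to the threshold. H19 had lower values on both siRNA arrays without passing it. Of 11 tested member probes, 2 were higher, where 0.983% of all 23711 tested probes were (limma). None was lower, where 0.936% of all were, and 1 of the 5 member probes with an unadjusted p under 0.05 had a lower value, H19. At that level 2520 of all 23711 tested probes were higher and 2340 were lower. The median of the member differences was 0.29 on the log2 scale, beside 0.022 over all tested probes.

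IGF2BP3 measured 11857 and 8611 in parental MIA PaCa-2 and 14649 and 13981 after siRNA. The groups did not overlap, and the siRNA arrays were higher by a log2 difference of 0.72 ± 0.096 (SE, n = 2 against 2; limma adjusted p = 0.0332), or 1.65-fold. The distal IGF2BP2 probe went from 1067 and 892 to 1247 and 1239, with no overlap (0.57 ± 0.081 SE, n = 2 against 2; limma adjusted p = 0.0383), or 1.48-fold. IGF2BP2 spliced, at 80.7 and 52.7 in parental cells and 78.1 and 80.7 after siRNA, differed by 0.50 after scaling and did not pass (adjusted p = 0.151).

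Both calls lay close to the threshold, and all scalings kept their direction. Leaving out any 1 of the 8 arrays, Capan-1 arrays included, gave an adjusted p from 0.0595 to 0.139 for IGF2BP2 distal and from 0.0443 to 0.118 for IGF2BP3, which passed only without replicate 2 of the MIA PaCa-2 siRNA arrays. Neither passed without scaling (0.35 and 0.50), with spike-in scaling, without a filter on dim probes, or with MIA PaCa-2 fitted alone. Without scaling the median of all tested probes moved to -0.19 and the share of calls that were higher from 51.2% to 29.2%.

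IGF2BP1 was at background after siRNA, at 5.38 and 5.62 against 7.81 and 8.04, and its log2 difference of -0.31 did not pass (adjusted p = 0.280). LIN28B measured 7.47 and 7.71 after siRNA and was well above background on both arrays, against 1 of 2 in parental cells (log2 difference 0.29, adjusted p = 0.288).

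HMGA2 first had the largest log2 difference among the members in MIA PaCa-2, 1.19 with a 95% interval from 0.33 to 2.04, and did not pass (adjusted p = 0.141). It measured 3292 and 3675 after siRNA, above both parental arrays, which themselves lay apart at 1402 and 2250. HMGA2 middle differed by -0.14 (adjusted p = 0.740), and HMGA2 last was at background in both groups and was not tested. HMGA1 measured 11988 and 13793 after siRNA and lay above both parental arrays only after scaling (0.36, adjusted p = 0.254). With the normexp correction HMGA2 first passed (1.18, adjusted p = 0.0158).

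H19 and IGF2 had lower values after siRNA in MIA PaCa-2. H19 measured 340 and 424 after siRNA, below both parental arrays at 878 and 578, by -0.69 ± 0.15 (SE, n = 2 against 2; limma adjusted p = 0.0845). With the normexp correction this difference passed (-0.61, adjusted p = 0.0200). IGF2 distal measured 147 and 166 after siRNA, also below both parental arrays, by -0.50, with a 95% interval from -1.21 to 0.21 (adjusted p = 0.387). IGF2 spliced, near background in both groups, differed by -0.18 (adjusted p = 0.544).

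In Capan-1 no member passed the threshold after siRNA. Of 8 tested member probes 0 were called in either direction by limma, where 0.00428% of all 23367 tested probes were (1 probe). At an unadjusted p under 0.05, where 1367 of all 23367 tested probes were higher and 1541 were lower, there was 1 member probe, IGF2BP3. It measured 2505 and 2622 after siRNA and 2186 and 2410 in parental cells (log2 difference 0.32, 95% interval from 0.081 to 0.55, adjusted p = 0.325).

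The remaining members in Capan-1 had intervals that included 0. HMGA2 first measured 2264 and 1926 after siRNA, above 1472 and 1197 in parental cells, with a log2 difference of 0.81 (95% interval from -0.045 to 1.67, adjusted p = 0.420). HMGA2 last, bright in this line, measured 436 and 480 against 480 and 612 and differed by -0.087 (95% interval from -0.58 to 0.41). IGF2BP1 measured 289 and 284 against 292 and 305, a difference of 0.099 with an interval from -0.24 to 0.44. HMGA1 measured 9871 on both siRNA arrays, and its difference was -0.16 (95% interval from -0.52 to 0.21, adjusted p = 0.692). The IGF2BP2 probes differed by 0.17 and 0.11 and HMGA2 middle by 0.026. H19, LIN28B and both IGF2 probes were not tested, since they were not well above background on both arrays of either group. With spike-in scaling the median of all tested probes moved to -0.45, and the values of IGF2BP3 (-0.14), IGF2BP2 (-0.28 and -0.34), IGF2BP1 (-0.36) and HMGA2 middle (-0.43) turned negative, all without a call.

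**Figure D4:**
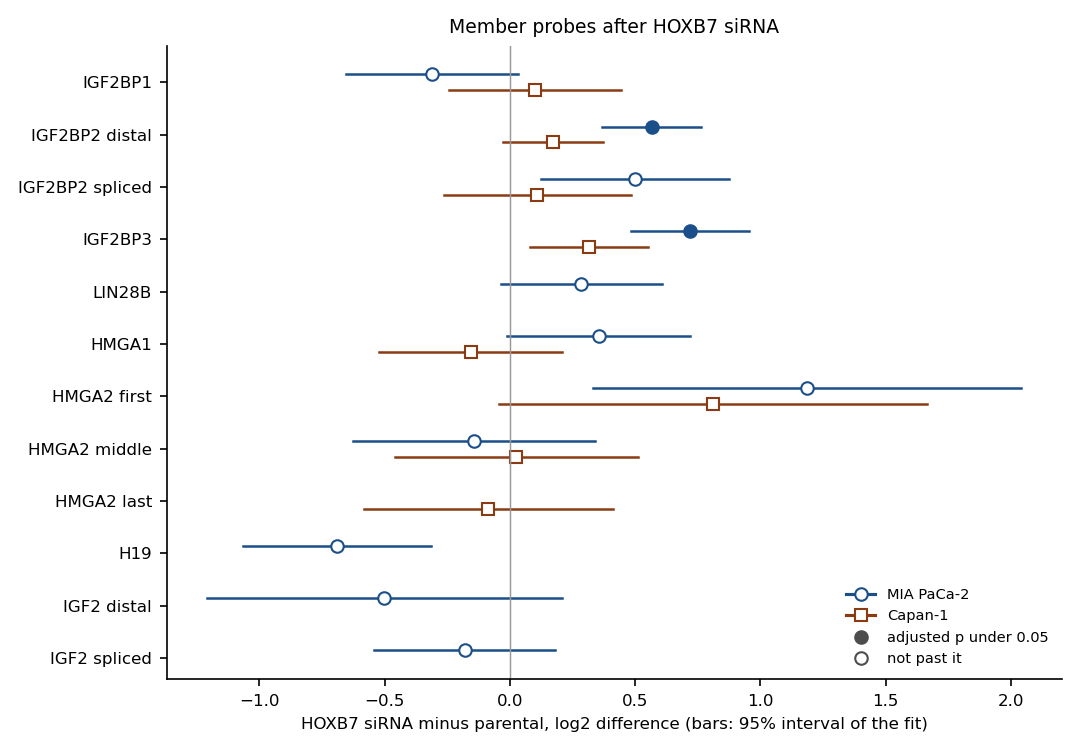
Log2 difference between HOXB7 siRNA and parental cells (horizontal axis) for each member probe (vertical axis) in MIA PaCa-2 (circles) and Capan-1 (squares), with 95% intervals of the fit and filled symbols for an adjusted p under 0.05. The filled points are IGF2BP3 and IGF2BP2 distal in MIA PaCa-2, at 0.72 and 0.57; a missing symbol means that the probe was not tested in that line.

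The difference between the lines in their response was tested by the interaction term. None of the 12 tested member probes was called by limma, where 0.00783% of all 25552 tested probes were (2 probes). At an unadjusted p under 0.05, 1580 of all tested probes had positive values and 1246 had negative ones, and 3 member probes passed. These were IGF2BP2 distal (0.39, adjusted p = 0.318), IGF2BP3 (0.40, adjusted p = 0.376) and H19 (-0.63, adjusted p = 0.381), H19 being at background in Capan-1. The responses of the IGF2BP genes in MIA PaCa-2 were therefore not shown to differ from those in Capan-1, and the 95% interval of the difference for IGF2BP3 ran from 0.069 to 0.73. With spike-in scaling the median interaction over all tested probes moved from 0.017 to 0.50, so the size of these values rests on the scaling.

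Lists of related genes were compared between the parental lines, since let-7, IGF and imprinting link the members. Of 10 tested genes of let-7 processing, 2 were higher in MIA PaCa-2 and 4 were lower. TUT4, the uridylyltransferase that acts on let-7 precursors bound by LIN28, measured 162 to 220 in parental MIA PaCa-2 and 6.54 to 8.22 in parental Capan-1, where 1 of 2 arrays was well above background (fitted log2 difference 4.66, not a bound). DIS3L2, the exonuclease that degrades such uridylated precursors, was lower in MIA PaCa-2 by one of its probes (-0.82), while its brightest probe differed by 0.081. AGO2 (-0.79) and DGCR8 (-0.67) were lower by their only probes. LIN28A, the paralog of LIN28B, was not tested. The list median was 0.032, beside 0.10 over all genes.

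Of 12 tested let-7 targets 3 were higher in MIA PaCa-2 and 6 were lower, with a list median of -0.12. Among those lower were the cell cycle kinase gene CDK6 (-2.37), TGFBR1 (-2.07), which was dim in MIA PaCa-2, and the phosphatase gene CDC25A (-1.68). The IGF receptor and binding protein genes divided evenly, 5 higher and 5 lower of 12 tested, with a median of -0.19. The binding protein genes were the extremes. IGFBP3, the main carrier of IGF in serum, measured 6742 to 8373 in parental Capan-1 and 3.75 to 6.22 in parental MIA PaCa-2, with 1 of 2 arrays well above background there (fitted log2 difference -10.64, not a bound). IGFBP1 (-6.33) and IGFBP2 (-3.18) were lower and IGFBP6 (2.99) was higher in MIA PaCa-2.

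Of 11 tested imprinted genes and insulator factors 3 were higher in MIA PaCa-2 and 6 were lower, with a median of -0.58. PEG10, a paternally expressed gene, was lower in MIA PaCa-2 (-7.62, fitted with 1 of 2 arrays well above background there), as were GRB10 (-1.28) and PLAGL1 (-1.07), and CDKN1C, in the same imprinted region of chromosome 11 as H19, was higher (1.65). Of 6 tested other fetal genes 1 was higher, PRAME (3.05), and 5 were lower, the largest being CDH3 (-5.07), SALL4 (-4.67) and POU5F1 (-2.87), with a median of -2.77. The lists share genes, and a gene was counted when any of its probes passed. Of the 49 different genes tested, 13 were higher and 26 were lower, and by the same count 40.1% of all 20121 genes were higher and 31.7% were lower.

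After siRNA in MIA PaCa-2, 1 of the 46 different list genes tested was higher and 1 was lower, where 1.17% and 1.12% of all 19169 genes were. Limma called none of 47 in Capan-1 and none of 49 in the interaction. At an unadjusted p under 0.05 there were 18 of 46 in MIA PaCa-2, 16 of 47 in Capan-1 and 10 of 49 in the interaction. Of 23711 probes tested in MIA PaCa-2, 2520 were higher and 2340 lower at that level. In Capan-1 1367 of 23367 were higher and 1541 lower, and in the interaction 1580 of 25552 were positive and 1246 negative. Genes were counted through any probe, so gene and probe shares are not directly comparable. DICER1, which cuts microRNA precursors and is itself a let-7 target, was higher in MIA PaCa-2, at 301 to 317 against 211 to 232 (0.70 ± 0.11 SE, n = 2 against 2; limma adjusted p = 0.0422). In Capan-1 it measured 306 to 352 against 194 to 222 and did not pass (0.82, adjusted p = 0.138). GRB10, an adaptor of the insulin and IGF1 receptors, was lower in MIA PaCa-2 by 1 of its probes (-0.89, limma adjusted p = 0.0266), while its brightest probe differed by -0.086. With MIA PaCa-2 fitted alone, 0 of all 23711 tested probes were called in either direction, so the DICER1 and GRB10 calls were lost too. No gene of the IGF list or of the other fetal genes passed in MIA PaCa-2.

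**Figure D5:**
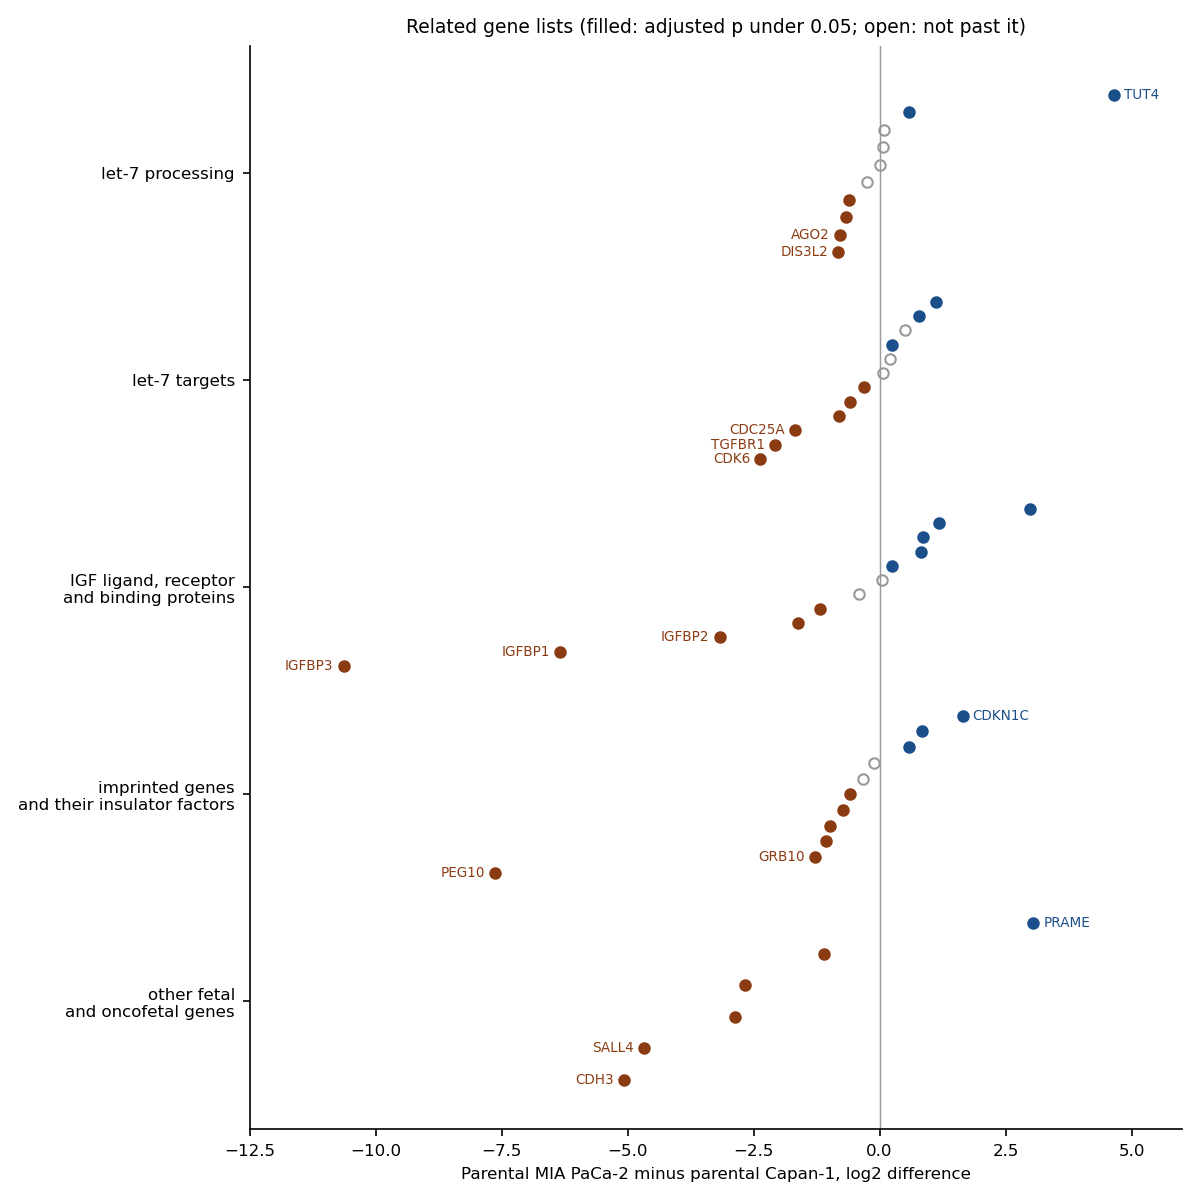
Log2 difference between the parental lines (horizontal axis) of the tested genes of 5 related lists (vertical axis), 1 point per gene, ordered by value within a list. Filled points passed an adjusted p of 0.05, open points did not, and the largest 3 of a list are named. IGFBP3 at -10.64 and TUT4 at 4.66, both fitted against signals near background, are the ends of the range.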

How the data were processed

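The authors scanned each array and deposited, for every spot, the intensity after background subtraction and detrending in Agilent Feature Extraction 9.5.3 (the version given in the submitters' processing notes), with its detection call and outlier flags. A second deposited table holds log2 values, which equal the scanner intensities to within 3.45e-08 and were not scaled between arrays. Here, spots with outlier flags were dropped, the log2 intensities of replicate spots were averaged, and the 75th percentile of the array, taken over gene probes, was subtracted. Testing required detection on both arrays of 1 or both groups compared. The 4 group means were fitted to all 8 arrays with lmFit and eBayes of limma (version 3.58.1, under R 4.3.3), two-sided, with Benjamini-Hochberg adjustment over all tested probes. Sequences were searched and figures drawn in Python. The fit was tested on simulated data with independent noise, without slide, position or transfection effects, so that test does not bear on those. Of the 34127 probes, 24827 were matched to current symbols by accession. Probe positions are those of the scanner files (hg18). Precision is limited by 2 arrays a group, for which an exact permutation test could not go below p = 0.333.

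The members, the related lists and the tests were chosen with earlier results of these data known. Genes of the lists are named when past the threshold, at most the 4 largest of a list in each comparison, and 1 of them is not reported here. Markers are named by the fixed list, and the IGF2 neighbors were chosen after values were seen. The alternatives were normexp (offset 50), quantile, no and spike-in scaling, outlier spots kept, the deposited log2 table, detection on all 8 arrays, no filter, an intensity trend, a replicate block, a minimum log2 difference of 1, each line or the parental arrays fitted alone, and each array left out.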

Additional observations from a re-analysis of the deposited data

Results flagged for a closer look

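HMGA1 stood out because its scaled values after HOXB7 siRNA went in opposite directions in the 2 lines, with no overlap in either. Its unscaled intensities overlapped in MIA PaCa-2. How often other probes went in opposite directions was not counted. The log2 difference of HMGA1 was 0.36 in MIA PaCa-2, where the siRNA arrays were both the higher ones after scaling. It was -0.16 in Capan-1, where they were both the lower ones. Neither difference passed the threshold, and the test of the difference itself, the interaction term, gave 0.51 with a limma adjusted p = 0.453.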

How the results depend on the processing

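Over 41 single-probe results and 20 alternative settings, of which 8 left out 1 array, 791 values were computed. Direction and call were kept in 730, a call was lost in 30, gained in 3, and the direction turned in 28, none of them a called value. Between the parental lines, member probes called higher went from 5 to 3 with detection on all 8 arrays or a minimum log2 difference of 1, and those called lower from 3 to 1 with detection on all 8 arrays. In MIA PaCa-2 after siRNA, the 2 called higher went to 0 without scaling, with spike-in scaling, without a filter, with a minimum log2 difference of 1, with MIA PaCa-2 fitted alone and with a replicate block, and ranged from 0 to 1 when 1 array was left out; 1 was called lower with normexp. The replicate block gave a limma adjusted p of 0.0625 for IGF2BP3 and 0.0757 for IGF2BP2 distal. Deviations from the group means of same-numbered arrays correlated at 0.025, 0.031 and -0.047. The labels do not say whether same-numbered arrays were paired, and with 2 arrays a group these correlations cannot settle it.

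Directions turned as follows, all as log2 differences. In MIA PaCa-2 after siRNA, normexp gave 0.16 for IGF2BP1, 0.082 for HMGA2 middle and 0.18 for IGF2 spliced. In Capan-1, no scaling gave -0.058 for IGF2BP1, -0.047 for IGF2BP2 spliced and -0.13 for HMGA2 middle, and spike-in scaling gave -0.36 for IGF2BP1, -0.28 and -0.34 for IGF2BP2, -0.14 for IGF2BP3 and -0.43 for HMGA2 middle. In the interaction, normexp gave 0.090 for IGF2BP1, quantile scaling -0.14 for IGF2 spliced, and spike-in scaling 0.073 for IGF2BP1, 0.31 for HMGA2 middle and 0.0033 for IGF2 distal. When 1 array was left out, the parental difference ranged from -0.30 to 0.098 for HMGA1 and from -0.11 to 0.89 for HMGA2 first, the MIA PaCa-2 difference from -0.41 to 0.13 for HMGA2 middle, and the Capan-1 difference from -0.055 to 0.27 for IGF2BP2 spliced and from -0.098 to 0.15 for HMGA2 middle. The interaction ranged from -0.13 to 0.88 for HMGA2 first, from -0.44 to 0.10 for HMGA2 middle, from -0.21 to 0.43 for HMGA2 last and from -0.052 to 0.22 for IGF2 spliced. The cause was not tested. With 2 arrays a group, and with LIN28B, IGF2 spliced, HMGA2 last in MIA PaCa-2 and H19 in Capan-1 near background, small differences were not detectable.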
